A study of Mus musculus with 6 samples.

Results

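The clustered protocadherins are cell-surface adhesion genes that lie side by side in an alpha, a beta and a gamma cluster on mouse chromosome 18. They were taken from the deposited table as every gene whose identifier maps to a symbol beginning Pcdha, Pcdhb or Pcdhg followed by a digit or by a, b or c. Pseudogenes were left out, which removed Pcdhgb8, a polymorphic pseudogene in the GENCODE M21 annotation. Of 47794 genes in the table, 57 met this rule: 14 alpha, 22 beta and 21 gamma genes. The 5 C-type isoforms, Pcdhac1, Pcdhac2, Pcdhgc3, Pcdhgc4 and Pcdhgc5, are counted within their alpha or gamma cluster and are also described as a set. The remaining gamma genes comprised 12 of the gamma A and 6 of the gamma B subfamily. The RNA was that of the primary somatosensory cortex of C57BL/6 mice at postnatal day 14, read by RNA-seq. All 6 libraries came from mice with the β-cat lox(ex3) allele, a Ctnnb1 allele whose exon 3 can be removed by Cre. In 3 of them (control, labelled loxP or Ctrl) no Cre was present. The other 3 (overexpression, labelled Ovp) also carried Nex-Cre, which is expressed from the Neurod6 locus in cortical excitatory neurons, so that other cell types of the tissue keep the intact exon. Nothing in the labels says that the numbered replicates were separate animals, so every p-value measures the spread between these libraries alone, and that spread may be technical in part.

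Clustered protocadherins are transmembrane proteins with cadherin repeats that bind the same isoform on a facing membrane. In the alpha and gamma clusters each variable first exon has its own promoter and is spliced to constant exons shared by the whole cluster, whereas each beta gene is a single variable exon without constant exons. Most alpha, beta and gamma A and B promoters are chosen at random in each neuron, through looping that depends on CTCF and cohesin, while C-type isoforms are expressed more broadly across neurons of a type. The resulting combinations give a neuron a surface identity that is known for its part in dendrite self-avoidance, axon tiling and neuron survival. A library of whole cortex sums these choices over many neurons.

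For each gene the table held 1 value per group, the mean of the scaled read counts of its 3 libraries. Library values were worked back from these means, as set out with the processing, for 50 members with a mean of at least 10. The libraries of each group are called A, B and C, and the same letter in the other group marks no pairing. One library stood apart: overexpression library B was the lowest of the 6 for most members, and the medians of the clusters and the log2 ratios of members described singly are also given without it where library values were recovered. Control library A and overexpression library A held all reads, apart from 1, of 3 genes of the Y chromosome (Kdm5d, Ddx3y and Eif2s3y), so library B was not set apart from library C by these genes. By the same genes, library A of each group held male tissue and libraries B and C did not. Within each group, library A was thus not a technical repeat of libraries B and C. Whether libraries B and C of a group were separate animals is not known. The Cre locus gene Neurod6 had a mean of 1199 with Nex-Cre and of 1942 without it, and Ctnnb1, read over the whole gene rather than exon 3, had means of 6391 and 7574. Their unadjusted p-values in the authors' deposited table were 5.04e-05 and 0.0304, and the adjusted p-values were 0.760 and 1.

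Nearly all members were expressed. Reads were present for 56 of 57 members, and 53 had a mean of the group values of at least 10. The group means of all members summed to 10673 in control cortex, 0.0561% of all scaled reads, and to 9497 with Nex-Cre, 0.0511%. To compare genes with each other, values were divided by the kilobases of exon that no other annotated gene covers (own kilobases). Per own kilobase of control cortex the C-type isoforms had a median of 300 and a range from 39.1 to 507. The medians were 64.2 for gamma A, 38.5 for alpha without C-type, 33.0 for gamma B and 30.5 for beta genes, and the ranges of these sets overlapped. The highest levels belonged to Pcdhgc5 at 507, Pcdhac2 at 307 and Pcdhgc3 at 300 per own kilobase. They were followed by the gamma A genes Pcdhga11 at 118 and Pcdhga3 at 114, and by Pcdhgc4 at 113. Pcdhac1 was at 39.1 per own kilobase, within the range of the alpha genes whose promoters are chosen at random. The C-type isoforms made up 40.3% of the summed member reads in control and 40.1% in overexpression cortex.

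**Figure D1:**
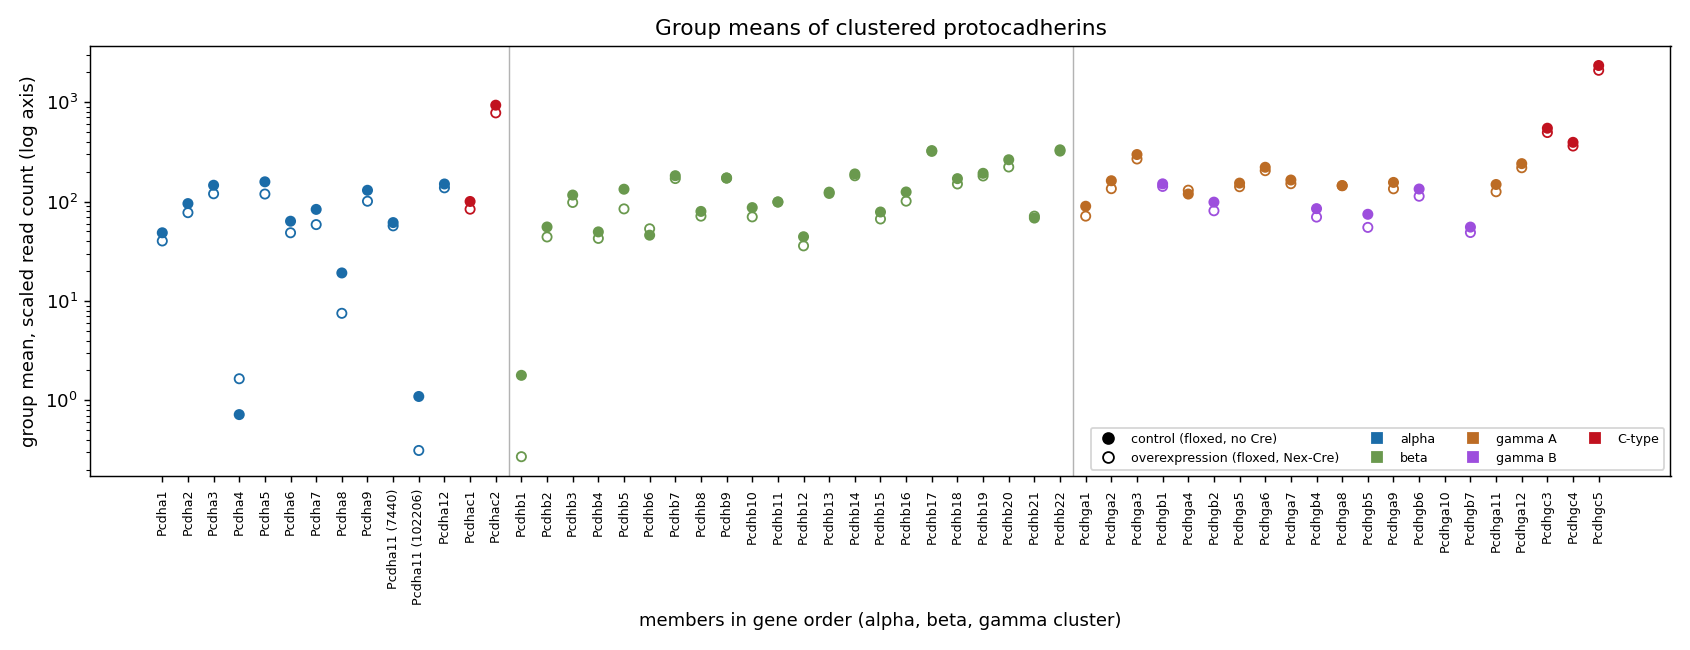
Group means of the clustered protocadherins in gene order, as scaled read counts on a log axis, with filled points for control and open points for overexpression cortex. Pcdhgc5 and Pcdhac2 stand highest, the open point lies below the filled one for 48 of 56 members, and Pcdhga10, listed at 0 in both groups, has no point.

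Most members had a lower mean in overexpression than in control cortex, by small amounts, and none passed the threshold. Of the 56 members with both means above 0, 48 were lower and 8 higher in overexpression cortex. Among all genes with both means above 0, 52.2% were lower. With the minimum mean of 10, 46 of 53 members were lower, where 53.2% of all such genes were. The median log2 ratio of overexpression to control was -0.22 over the members and -0.0086 over all genes with both means above 0. By cluster, 13 of 14 alpha genes were lower with a median of -0.29, 16 of 22 beta genes with a median of -0.17, and 19 of 20 gamma genes with a median of -0.15. The 10 lower of 11 gamma A genes had a set median of -0.14, and all 6 gamma B genes were lower with a median of -0.26. All 5 C-type isoforms were lower, with a median of -0.16. In bulk tissue, fewer cells of a type and less RNA per cell cannot be told apart.

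None of the 57 members (0) had an adjusted p under 0.05 in the authors' deposited table, and 0% of the 30152 genes tested did. At an unadjusted p under 0.05 the authors' deposited table held 1 member, Pcdha8, against 0.534% of all genes. On the library values, limma with Benjamini-Hochberg adjustment called 0 of the 50 members that could be fitted, and 0% of the 10233 genes in the fit. The lowest limma adjusted p of any gene was 0.789, and every member's was 0.99954. At an unadjusted limma p under 0.05 there were 2 members, Pcdha8 and Pcdhb5, both lower, against 2.08% of the genes in the fit in either direction and 0.645% lower. The same 2 members were past it without overexpression library B, where 3.34% of the genes in the fit were. The 95% interval of the limma difference held 0 for 48 of 50 members. Its median half-width was 1.41-fold, and only 4 members (Pcdhb17, Pcdhb20, Pcdhb22 and Pcdhga12) had a half-width under the size of the alpha median. For the other members in the fit the half-width exceeded a difference of that size. These intervals are unadjusted, so they do not show that such a difference would pass the adjusted threshold in the 4 members either.

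The lower means rested to a large part on overexpression library B. Over the 50 members, the summed scaled reads were 6948, 7363 and 6264 in control libraries A, B and C. They were 6270, 4791 and 7338 in overexpression libraries A, B and C. The exact Poisson 95% interval of overexpression library B ran from 4661 to 4925, and the lowest bound among the other 5 libraries was 6102, counting error only. Relative to the control mean, the overexpression libraries held 91.4%, 69.9% and 107% of the member reads, and the controls 101%, 107% and 91.3%. The group sums were 6858 ± 555 (SD, n = 3) in control and 6133 ± 1279 (SD, n = 3) in overexpression cortex, and without library B the overexpression mean was 6804. The sums of overexpression libraries A and C lay within the control range.

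The low values of library B ran through the clusters. Library B was the lowest of the 6 for 38 of 50 members, where it was the lowest for 15% of all genes in the fit. It was below both other overexpression libraries for 43 members, against 29% of all genes. The median ratio of library B to the mean of libraries A and C was 0.678 over members, with a range from 0.392 for Pcdhb2 to 1.45 for Pcdhga11, and 1.04 over all genes. Of the 10233 genes in the fit, 7.56% had a ratio at or under 0.678. Library B was below all 3 controls for 41 members, overexpression library A for 19, and overexpression library C for 6, while library C was above all controls for 14. Among all 10233 genes in the fit, these counts were 2078 (20.3%) for library B, 2489 for library A and 2392 for library C. Library C was above all controls for 2529 of them. By cluster, library B held 56.2% of the control mean of the summed alpha reads, 75.7% of beta and 68.9% of gamma reads. Only 4 members had a ratio of library B above 1, namely Pcdhga11 at 1.45, Pcdhgb6 at 1.32, Pcdhb12 at 1.12 and Pcdhb5 at 1.01. They were singled out after their values were seen, and they lie in the beta and gamma clusters.

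**Figure D2:**
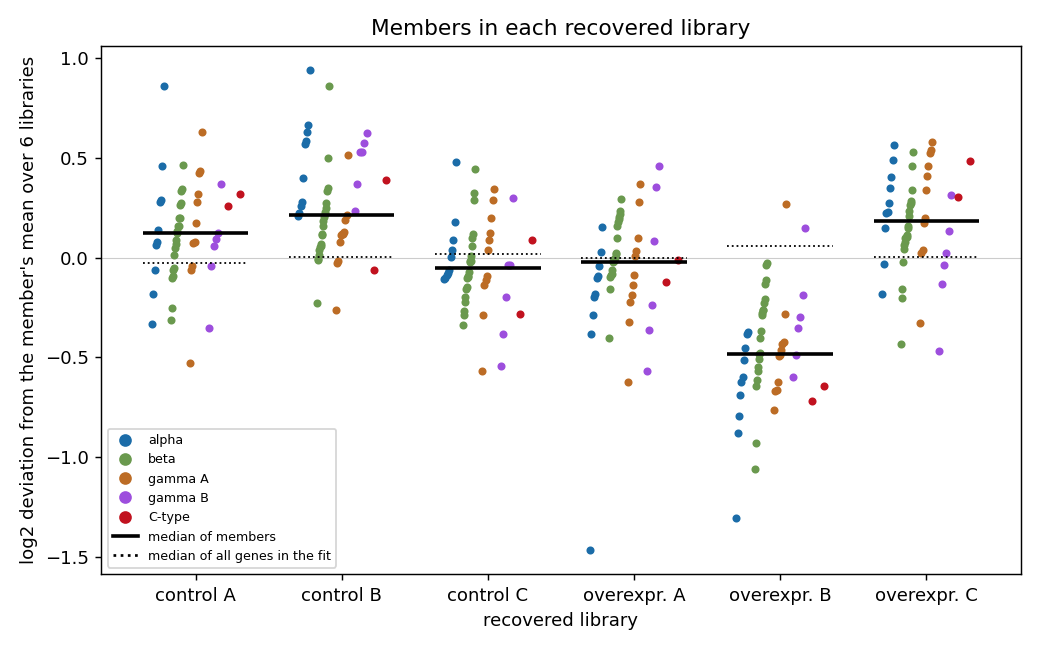
Deviation of each of 50 members from its mean over 6 libraries, on the log2(value + 1) scale, by recovered library and coloured by cluster, with the median of members (solid line) and of all genes in the fit (dotted line). The members' median is -0.48 in overexpression library B, where that of all genes is 0.058, and lies between -0.05 and 0.21 in the other 5 libraries.

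Without library B the shift of the clusters was near 0. The median log2 ratio over the 50 members was then -0.014, with 27 lower and 23 higher, where 50.1% of all genes in the fit were lower. The alpha median was -0.096 with 9 of 11 genes lower, the beta median 0.032 with 9 of 21 lower, and the gamma median -0.0099 with 9 of 18 lower. The gamma B genes had a median of -0.15 with 5 of 6 lower. The C-type median over the 2 isoforms with library values was 0.046. The beta and C-type medians changed direction. The spread between libraries includes library B itself, so it cannot show whether this change is more than spread. Library B was left out because its values were low, which by itself raises the ratios. Without overexpression library C instead, the medians were -0.54 for alpha, -0.23 for beta and -0.32 for gamma genes, and 48 of 50 members were lower.

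**Figure D3:**
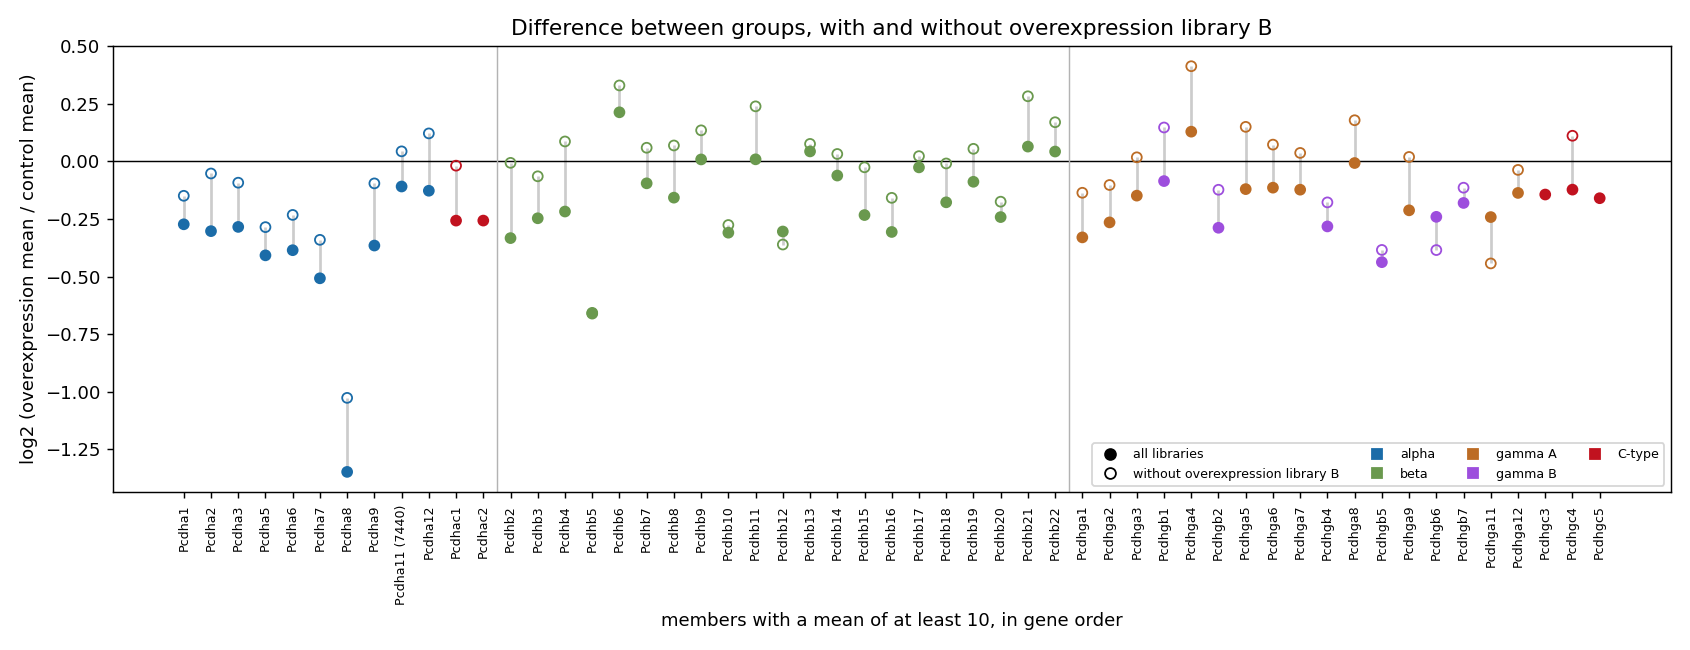
log2 ratio of the overexpression mean to the control mean for each of the 53 members with a mean of at least 10, in gene order, with all libraries (filled) and without overexpression library B (open). Leaving out library B moves 46 of 50 members upwards, and the 3 C-type isoforms without recovered library values have a filled point only.

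The members varied together between libraries. Their median SD within groups, on the log2(value + 1) scale, was 0.34. With each library centred on the median deviation of the members it was 0.23, and 1799 other genes with means from 73.3 to 155 had a median SD of 0.20. The centring used these same members, so part of the drop was built in, and the other genes were not centred. Over all genes, deviations moved with transcript length as well, in library B and in other libraries. With all genes in 5 equal groups, from shortest to longest transcripts, library B had median deviations of 0.13, 0.10, 0.059, 0.018 and -0.034. From the shortest to the longest group the median went from -0.063 to 0.064 in overexpression C and from -0.036 to 0.057 in control B. It went from 0.064 to -0.018 in control C, from -0.0048 to -0.038 in control A and from -0.015 to 0.0067 in overexpression A. The 1332 other genes with transcripts from 3945 to 5241 bases, the middle range of the members, had a median deviation of 0.0031 in library B, against -0.48 for the members.

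In the alpha cluster, 10 genes other than the C-type isoforms had a mean of at least 10, and all 10 were lower in overexpression cortex, with log2 ratios from -1.35 to -0.11, or 8 of 10 without library B. Overexpression library B was below all 3 controls for each of the 10, and library A for 7. Among all 10233 genes in the fit, library B was below all controls for 2078 and library A for 2489. The alpha gene with the most reads differed between libraries: it was Pcdha12 in control A and overexpression C, Pcdha5 in control B and overexpression B, and Pcdha3 in control C and overexpression A. Pcdha12 was at 153, 166 and 131 in the controls and at 121, 85.6 and 206 in the overexpression libraries. Its control values lay inside the range of the overexpression values, so the groups overlapped, with means of 150 ± 17.7 and 137 ± 61.9 (SD, n = 3 each). Its log2 ratio of -0.13 became 0.12 without library B. Pcdha5 was at 141, 208 and 125 in the controls and at 110, 97.9 and 149 in the overexpression libraries. Overexpression C lay between the controls, and the log2 ratio of the means was -0.41, or -0.29 without library B.

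Pcdha8 had the lowest log2 ratio of the members with a mean of at least 10, at -1.35. It was also the lowest of them per own kilobase, and its scaled reads were at 20.4, 21.6 and 15.4 in the controls and 3.26, 3.76 and 15.5 in the overexpression libraries. Overexpression libraries A and B were low together, and library C was inside the control range, just above control C. The limma difference was -1.52 ± 0.50 (SE, log2(value + 1) scale), with an unadjusted p of 0.0104 and an adjusted p of 0.99954. Leaving out library B gave a log2 ratio of -1.03 and an unadjusted limma p of 0.0355. Pcdha7, its neighbour in gene order, was at 83.5, 103 and 64.0 in the controls and 64.4, 44.2 and 67.3 in the overexpression libraries. Overexpression A and C lay just above the lowest control, and the limma difference was -0.50 ± 0.23 (SE) with an unadjusted p of 0.0508. Without library B the log2 ratio went from -0.51 to -0.34 and the unadjusted limma p to 0.191. Pcdha9 was at 152, 134 and 104 in the controls and 97.0, 59.3 and 146 in the overexpression libraries, and Pcdha2 at 103, 97.2 and 86.0 and at 85.6, 48.0 and 98.3. In both genes library B was the lowest of the 6, and the log2 ratio went from -0.37 to -0.096 for Pcdha9 and from -0.30 to -0.053 for Pcdha2 when it was left out.

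In the beta cluster the Pcdhb17 and Pcdhb22 genes had the most reads of the cluster in each of the 6 libraries. Pcdhb22 was at 304, 334 and 326 in the controls and 372, 270 and 352 in the overexpression libraries. The overexpression values lay on both sides of the controls, with a log2 ratio of 0.043, or 0.17 without library B. Pcdhb17 was at 337, 359 and 280 in the controls and 316, 297 and 345 in the overexpression libraries, all 3 inside the control range. Its limma difference was -0.021 ± 0.12 (SE), and its log2 ratio went from -0.026 to 0.023 without library B.

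Of the 50 members in the fit, Pcdhb5 and Pcdhb20 were those whose library values did not overlap between the groups, both lower in overexpression cortex. Among all genes in the fit, 2.73% did not overlap and were lower and 4.33% did not overlap and were higher, and 0 members were of the second kind. Pcdhb5 was at 113, 189 and 97.0 in the controls and 78.2, 84.7 and 90.02 in the overexpression libraries. Control B stood well above the other controls, while the overexpression values lay close together and library B was in their middle. The limma difference was -0.59 ± 0.22 (SE) with an unadjusted p of 0.0212 and an adjusted p of 0.99954, and without library B the unadjusted p was 0.0337. Pcdhb20, singled out for not overlapping, was at 277, 274 and 238.2 in the controls and 228, 201 and 237.98 in the overexpression libraries. Control C and overexpression C differed by less than the worth of 1 read, and the limma difference was -0.24 ± 0.12 (SE) with an unadjusted p of 0.0716, or 0.199 without library B.

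Higher means were found for 6 beta genes, and 4 of the 5 highest log2 ratios among the members with a mean of at least 10 were of this cluster. Pcdhb6 was at 40.7, 57.2 and 39.7 in the controls and 48.1, 44.2 and 67.3 in the overexpression libraries. The groups overlapped, and its log2 ratio was 0.21, or 0.33 without library B. Pcdhb21 was at 66.2, 74.5 and 64.0 and at 79.0, 48.0 and 86.9, with library B below and the other overexpression libraries above all controls. Its log2 ratio went from 0.064 to 0.28 without library B. Pcdhb13 was at 97.7, 132 and 132 and at 124, 119 and 130, which lie within the control range, with a log2 ratio of 0.043, or 0.076 without library B. Pcdhb9 and Pcdhb11 were the other 2, with log2 ratios of 0.0083 and 0.0088 that became 0.13 and 0.24 without library B. Pcdhb2 had the lowest ratio of library B to its group, at 43.2, 21.6 and 67.3 in the overexpression libraries against 64.1, 65.9 and 36.4 in the controls, and its log2 ratio of -0.33 became -0.0065 without it.

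Along the beta cluster, the first 11 genes with a mean of at least 10, Pcdhb2 to Pcdhb12, had a median of 86.9 scaled reads in control cortex, and the last 10, Pcdhb13 to Pcdhb22, one of 180. Per own kilobase the medians were 30.5 and 30.3. The median log2 ratios of these parts were -0.22 and -0.075, and without library B 0.059 and 0.027. For alpha genes the first and last 5 in gene order had median log2 ratios of -0.30 and -0.37, for gamma A genes the first 6 and last 5 had -0.13 and -0.14, and for gamma B genes the first and last 3 had -0.28 and -0.24. Without library B these medians were -0.15 and -0.096 for alpha, 0.045 and 0.019 for gamma A, and -0.12 and -0.38 for gamma B genes.

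**Figure D4:**
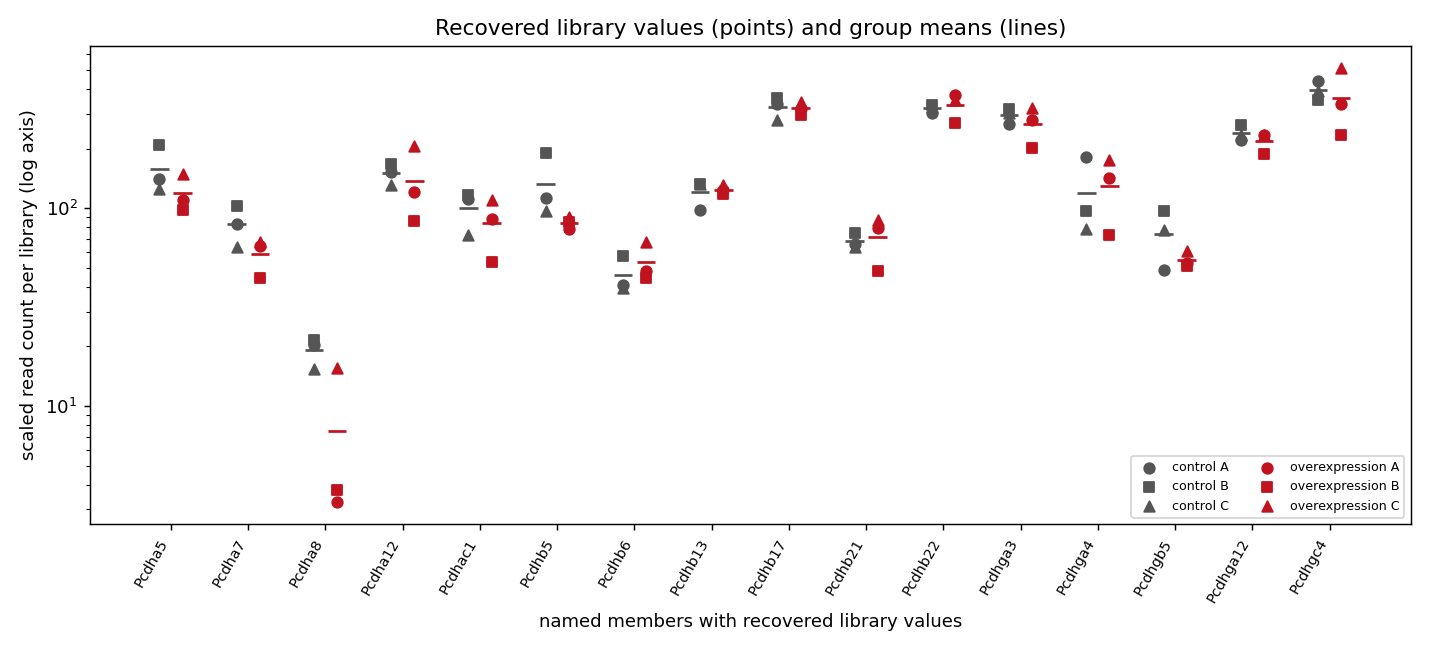
Library values of 16 members described in the text, as scaled read counts on a log axis, with points for the 3 control (grey) and 3 overexpression (red) libraries and a line at each group mean. Square red points, overexpression library B, are the lowest red point for most genes, and Pcdhb5 is the one gene shown whose red points all lie under the grey ones.

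In the gamma cluster, 11 gamma A genes, 6 gamma B genes and the 3 C-type isoforms had a mean of at least 10. Pcdhga3 had the most reads of the gamma A genes in each of the 6 libraries, at 268, 319 and 304 in the controls and 280, 202 and 321 in the overexpression libraries. Library B was the lowest of the 6, and overexpression A and C lay within or just above the control range, so that the log2 ratio of -0.15 became 0.017 without library B. Pcdhga12, the last gamma A gene in gene order, was at 222, 265 and 235 in the controls and at 234, 187 and 235 in the overexpression libraries. Its log2 ratio was -0.14, and -0.037 without library B. Pcdhga4 was the only gamma gene with a higher mean in overexpression cortex, at 181, 97.2 and 78.3 in the controls and 142, 73.4 and 175 in the overexpression libraries. Control A stood far above the other controls and library B below the other overexpression libraries, and the log2 ratio was 0.13, or 0.41 without library B.

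Library B was the lowest of the 6 for 10 of 11 gamma A genes and for 3 of 6 gamma B genes, and the difference between these shares was not tested. Pcdhgb5 had the lowest log2 ratio of the gamma genes, at -0.44, or -0.38 without library B. It was at 48.9, 97.2 and 77.2 in the controls and 53.0, 50.8 and 61.0 in the overexpression libraries, where control A was the lowest of the 6. Pcdhgb6, an exception to the low values of library B, was at 126, 157 and 118 in the controls and 81.5, 135 and 123 in the overexpression libraries. Pcdhga11, the other gamma exception, was at 90.6, 188 and 167 in the controls and 84.7, 158 and 133 in the overexpression libraries. Both had their lowest value in overexpression A, and their log2 ratios without library B were lower, at -0.39 for Pcdhgb6 and -0.44 for Pcdhga11, than with it, at -0.24 each.

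Among the C-type isoforms, Pcdhgc5 had the most reads of all members, with group means of 2334 in control and 2089 in overexpression cortex and a log2 ratio of -0.16. Both means lie above the range in which library values were sought. Pcdhac2 was at 969, 1014 and 809 in the control libraries, with group means of 931 and 779 and a log2 ratio of -0.26. Pcdhgc3 was at 552, 564 and 523 in the control libraries, with group means of 546 and 494 and a log2 ratio of -0.14. The overexpression values of neither could be recovered, so whether library B was low for these 3 isoforms was not tested. Pcdhgc4, an isoform known for its part in the survival of cortical interneurons, was at 439, 352 and 390 in the controls and 337, 234 and 513 in the overexpression libraries. The overexpression values lay on both sides of all controls, and their SD of 141 exceeded the control SD of 43.5. Pcdhac1 was at 111, 117 and 72.8 in the controls and 88.0, 53.6 and 110 in the overexpression libraries. Library B was the lowest of the 6 for both, and their log2 ratios of -0.12 and -0.26 became 0.11 and -0.019 without it.

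For 4 members the values were near 0 or at 0, and how the gene models overlap differed for them. Pcdhga10 was listed at 0 in both groups and has no exon base that another gene model does not also cover. In the stretch of the clusters, 85 gene models were annotated, of which 8 have no exon base of their own, and all 8 were listed at 0 in both groups. Of the 77 with own bases, 0 were listed at 0 in both. Pcdha4 had means of 1.65 with and 0.720 without Nex-Cre, and 404 of its exon bases are its own, the rest being covered mostly by the gene model Gm42416 and by the other alpha genes. The Pcdha11 entry ENSMUSG00000102206 was at 0.314 and 1.10 with 1268 own bases, or 16.8%. Per own kilobase of control cortex Pcdha4 was at 1.78 and this entry at 0.864, where Pcdha8 was at 7.72. A second entry with the symbol Pcdha11, ENSMUSG00000007440, lies at the start of the RefSeq gene Pcdha10 and was at 56.9 and 61.4. Pcdhb1 was at 0.272 and 1.79 although 100% of its exon bases are its own. The counter behind the table is not given in the sources used here, so levels of Pcdhga10, Pcdha4 and Pcdha11 are uncertain. Alpha and gamma genes share their constant exons, and how reads in these exons were counted is not given either.

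**Figure D5:**
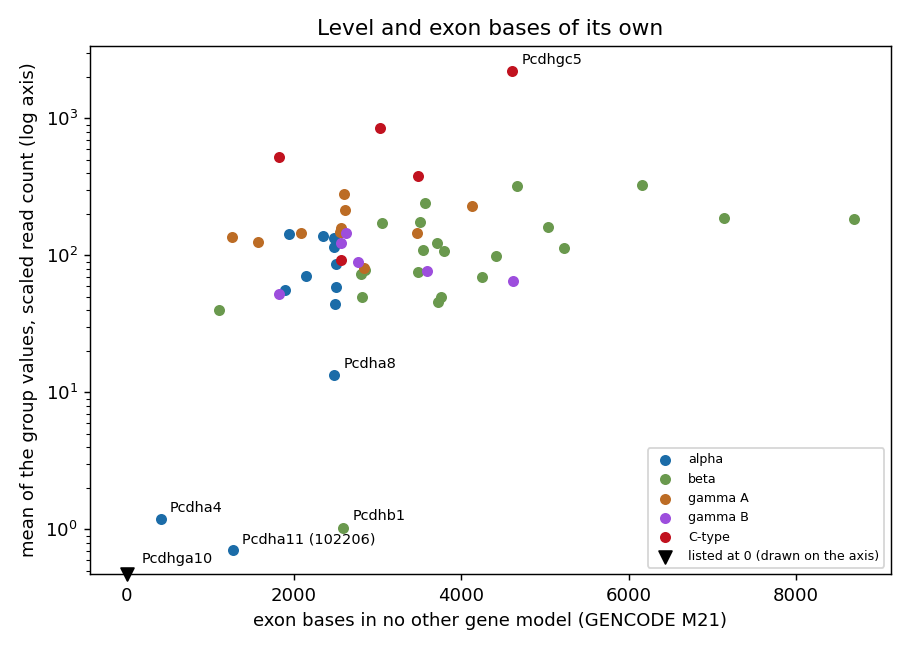
Mean of the group values, as scaled read counts on a log axis, against exon bases in no other gene model of GENCODE M21, for each of the 57 members. Pcdhga10, with 0 own bases, is listed at 0 and drawn on the axis, while Pcdhb1 is near 0 with all of its bases its own.

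Genes that act on or with the clustered protocadherins were measured in full, and 0 of 45 had a p under 0.05 in the authors' deposited table, adjusted or not. Of all genes tested there, 0.534% had an unadjusted and 0% an adjusted p under 0.05. The count of 0 is near these shares and does not set the list apart. Of 20 genes for chromatin looping and silencing at these promoters, 14 had a lower and 6 a higher mean in overexpression cortex, with a median log2 ratio of -0.051. The highest of them by reads was Dnmt3a, a de novo DNA methyltransferase, with a log2 ratio of -0.094. Ctcf, the insulator protein that binds protocadherin promoters, had a log2 ratio of 0.031, and the cohesin subunit gene Rad21 one of -0.025. Of 19 partners in the cell, such as the kinases and the WAVE complex that bind protocadherin tails, 15 were lower and 4 higher with a median of -0.020. The WAVE complex genes Cyfip2 and Nckap1 had the most reads and log2 ratios of -0.052 and -0.11. Of 6 genes for the proteases that cleave protocadherins, 3 were lower and 3 higher with a median of -0.013, and among them the sheddase gene Adam10 had a log2 ratio of -0.029.

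The non-clustered protocadherins are adhesion genes with promoters of their own outside the clusters. Of 10, 9 had a lower mean in overexpression cortex, with a median log2 ratio of -0.13 and sums of 21180 and 22875. By adjusted p, 0 were past the threshold in the authors' deposited table, and 0% of all genes tested were. Pcdh1 and Pcdh10, those with the most reads, had log2 ratios of -0.15 and -0.055, and Pcdh20 was the one with a higher mean. Library values of both groups were recovered for Pcdh18 alone, at 233, 229 and 212 in the controls and 200, 197 and 246 in the overexpression libraries. Library B was the lowest of the 6 there too, by a small margin over library A. The difference between the clustered and the non-clustered genes was not tested.

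Markers of the cell types of cortex had reads in both groups, and none was at 0. The 6 excitatory neuron markers were all lower in overexpression cortex with a median log2 ratio of -0.070, and the 6 inhibitory neuron markers were all lower with a median of -0.16. The 5 oligodendrocyte markers were all higher with a median of 0.10, and 4 of 5 endothelial markers were higher with a median of 0.099. Astrocyte and microglia markers were lower in 2 of 5 each, with medians of 0.021 and 0.037. None of these had a p under 0.05 in the authors' deposited table, adjusted or not. Of all genes tested, 0.534% had an unadjusted and 0% an adjusted p under it. Of the neuron markers only Vip had library values in both groups, with 937, 701 and 662 in the controls and 678, 770 and 564 in the overexpression libraries, so that library B held the highest of the overexpression values.

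Markers of choroid plexus, a tissue that expresses C-type and other protocadherins, differed between libraries. The means of its 10 markers summed to 459 without and 283 with Nex-Cre, 8 of 10 were lower, the median log2 ratio was -0.14 and no marker was at 0. Most of that drop was Ttr, with means of 290 and 122. No combination of control library values within 2-fold of its control mean was found. How that mean was spread over the control libraries is therefore not known. The other 9 had library values in both groups, and 5 of them had a mean of at least 10. These 9 summed to 170, 219 and 119 in the controls and to 195, 84.7 and 204 in the overexpression libraries. Kl, which differed most between these libraries, was at 10.4 in library B and at 95.3 and 68.3 in overexpression A and C. Among the overexpression libraries Ttr was highest in library B, at 170 against 97.8 and 97.3. Kcne2 was also highest there, at 6.59 against 1.63 and 3.10, but its mean is under 10 and too shallow to compare. Aqp1 in library B, at 23.5, lay between the 10.6 of library A and the 30.01 of library C. Of the 7 meninges markers 6 were lower with a median of -0.079, sums of 4204 and 4503 and no marker at 0. The 3 with library values in both groups summed to 303, 376 and 317 in the controls and 161, 285 and 378 in the overexpression libraries, lowest in library A. The part of either tissue, of transcript length and of the cell type markers in the low protocadherin values of library B was not tested.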

How the data were processed

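Total RNA of primary somatosensory cortex was sequenced from TruSeq libraries, per the labels' protocols, and the submitters' processing notes list TopHat2 2.0.9 and Bowtie2 2.0.6. Not given in the sources used here are the genome build, the counter, its strand setting and the test. The authors deposited a signal value per gene and group (the mean of scaled read counts, as read from the values), a p-value, its adjusted value and a log2 fold change for 47794 genes. Log2 ratios were recomputed from the group means. The worth of 1 read in each library was read from the lowest group means, and for each mean up to 1000 the whole reads per library that give it to 10 significant digits were sought. Above 200 only library values within 2-fold of the mean were searched. A single combination was found for 99.99% of control and 99.9% of overexpression means up to 200, and for 99.6% and 54.1% of those from 200 to 1000. On simulated means every single combination found was the right one (21117 control and 21077 overexpression means). These were 99.8% and 99.2% of the simulated means up to 1000. The simulated libraries had little spread, so they could not show errors from a library beyond 2-fold above 200. For real means from 50 to 200, recovered without that limit, 0.949% in control and 0.947% in overexpression had such a library. Total reads per library are unknown; the scaling factors were 0.982, 0.926 and 0.907 in control libraries A, B and C and 1.23, 1.06 and 0.966 in overexpression libraries. Library values of 10233 genes (minimum mean 10) were tested with limma 3.58.1 (trend, log2(value + 1), R 4.3.3) and Benjamini-Hochberg adjustment over all of them. The smallest exact two-sided p for 3 libraries against 3 is 0.1. Exon bases came from GENCODE M21 on GRCm38. The members, the 13 lists of other genes and the tests were chosen with earlier results of these data known. Members described in full were the C-type isoforms, the 2 with the highest mean in each cluster, and the 5 lowest and 5 highest log2 ratios among members with a mean of at least 10, and others were singled out after their values were seen. Of the other genes, those with the highest means of the lists of regulators, partners, proteases and non-clustered protocadherins were named, and some are not reported here.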

Additional observations from a re-analysis of the deposited data

How the results depend on the processing

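The cluster medians kept their direction with a minimum mean of 10, equal totals, centring on all genes, a ratio of sums, a pseudocount of 1, or recovered members only (the last chosen after seeing the data). Leaving out each library in turn, the alpha median ranged from -0.54 (without overexpression C) to -0.096 (without overexpression B), beta from -0.23 to 0.032, gamma from -0.32 to -0.0099 and the 2 recovered C-type isoforms from -0.48 to 0.046, with the same libraries at the ends. The beta and C-type medians of 0.032 and 0.046 were reversed. Medians moved by over 1.5 times also for alpha without control B (-0.16), gamma without control C (-0.25) and C-type without control A (-0.11) or C (-0.29). Of 50 recovered members, 43 were lower, and leaving out a library (chosen after seeing the data) gave 27 without overexpression B to 48 without overexpression C. The authors' deposited table held 0 members by adjusted and 1 by unadjusted p. At an unadjusted limma p under 0.05 there were 2 members, against 2.08% of all genes in the fit. They became 1 with a minimum mean of 50 (1.78% of all genes) or without the trend (3.34%). They became 3 with a minimum mean of 1 (2.62%) or with centred libraries (1.99%). With a library left out they were 2 to 14: 5 when control C was absent (3.81% of all genes), 4 when control A (1.47%) or overexpression A (2.47%) was, and 14 when overexpression C was (3.10%). No member passed an adjusted p in any of these fits. No paired analysis was possible because the recovered libraries carry no replicate number. Values under 10 were too shallow to compare, and means above 1000 carry no library values.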
